A study of Mus musculus with 4 samples.

Results

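NKR-P1 receptors are C-type lectin-like proteins on the surface of natural killer (NK) cells, innate lymphocytes that can kill other cells, and several of their ligands are lectin-like proteins of the Clec2 family. Receptor and ligand genes lie interleaved in the NK gene complex, so that matched pairs are inherited together. Activating NKR-P1 receptors signal through the adaptor Fcer1g, whereas inhibitory ones recruit the phosphatase SHP-1. The 8 genes described here are the receptor genes Klrb1a, Klrb1b, Klrb1c and Klrb1f, the ligand-family genes Clec2d, Clec2g and Clec2i, and their neighbour Cd69. They were taken by gene name from the GENCODE annotation, out of the 21755 protein-coding genes considered, and each was examined over its gene body and 25 kb on either side.

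Accessible chromatin was mapped by DNase-seq, in which dense cutting by the nuclease DNase I marks open DNA. All 4 libraries were labelled NK cells, primary cells of adult female B6CASTF1/J mice aged 2 months, the F1 hybrid of C57BL/6J and CAST mice. They form a single group with no treatment or control, carry separate biosamples but 1 donor identifier in the labels, and have neither tissue nor sort stated, so the SD over libraries (n = 4) can be partly technical. Positions are on mm10, which is the C57BL/6J sequence, and variants on the CAST chromosomes are not represented in it. Replicate 3 had the longest peak list, 69168 peaks, against 36285 to 47496 in the other libraries, and also the highest median signal of regions found in all 4 libraries, 2.85 against 1.39 to 1.98. The number of reads is unknown and no source used here gives the unit of the authors' peak signal, so levels are read mainly within a library.

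Markers fixed as a list for each cell type were checked at the gene 5' ends. Of 10 NK markers, 6 had a peak in at least 3 libraries (called recurrent here), among them Ncr1 and Prf1. Klrk1, Klrd1, Tbx21 and Gzma were not recurrent. Each had no peak in replicate 4 and its highest value in replicate 3, at 2.52, 1.72, 1.58 and 1.46. The summed signal of all 10, after division by each library's median, was 12.4 to 21.1. The T cell list gave 0.534 to 1.03, with 2 of 9 markers recurrent (Cd3g and Lef1) and 6 at 0 in every library, including Cd3e, Cd4 and Cd8a. The myeloid list gave 2.93 to 3.57, with 3 of 8 markers recurrent (Itgam 1.19 ± 0.656, Cebpa 2.36 ± 0.655 and Cebpb 2.64 ± 0.317) and Csf1r, Lyz2, Adgre1, Mpo and Siglech at 0. The B cell list gave 0.771 to 6.02, with 5 of 8 markers recurrent. Of all protein-coding genes 50.3% had such a 5' end, and the part of other cells in the results below was not tested. In such bulk libraries, a low signal from few cells and a low signal per cell cannot be told apart.

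Most of the accessible DNA at these genes lay in the gaps between them. Peaks of the 4 libraries that touched or overlapped were merged, giving 72 regions in the 8 loci, each assigned to 1 gene, of which 38 (52.8%) were recurrent, meaning that at least 3 of 4 libraries had a peak, as were 46.8% of the genome's regions. Among these 72, all 4 libraries shared 32 (44.4%, against 34.7% in the genome), while 26 had a peak in a single library, which was replicate 3 for 21 of them. Every one of the 8 loci held at least 1 recurrent region, as did 74.9% of protein-coding genes with the same flanks. Klrb1c was assigned 12 recurrent regions, Klrb1b 9, Klrb1f 5, Klrb1a and Cd69 3 each, and Clec2d, Clec2g and Clec2i 2 each. Klrb1b and Klrb1c are neighbours whose loci overlap, and 12 regions, 8 of them recurrent, lay in both loci and were assigned once. The order of the pair depends on that assignment: by the nearest gene body Klrb1b had 11 and Klrb1c 10 recurrent regions, with mean summed signals of 55 and 43.7.

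Counted without assignment, Klrb1b had 25.5 and Klrb1c 21.4 recurrent regions per 100 kb of locus. The median of the 8 genes was 4.92, against a median of 2.93 and a 90th percentile of 9.74 over all protein-coding genes. The 34 recurrent regions of the 8 loci that lay more than 1 kb from the 5' end of any protein-coding gene had a median signal of 2.33, compared with 1.12 over the 23620 such regions of the genome. Of the 34, Klrb1c held 12 and Klrb1b 9, with means from 1.14 to 11.3. In the rest, at the other genes, the means ran from 0.481 to 3.54. By regions per 100 kb, only Klrb1b and Klrb1c stood above the 90th percentile, and Clec2g, with 1.99, was below the genome's median.

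**Figure D1:**
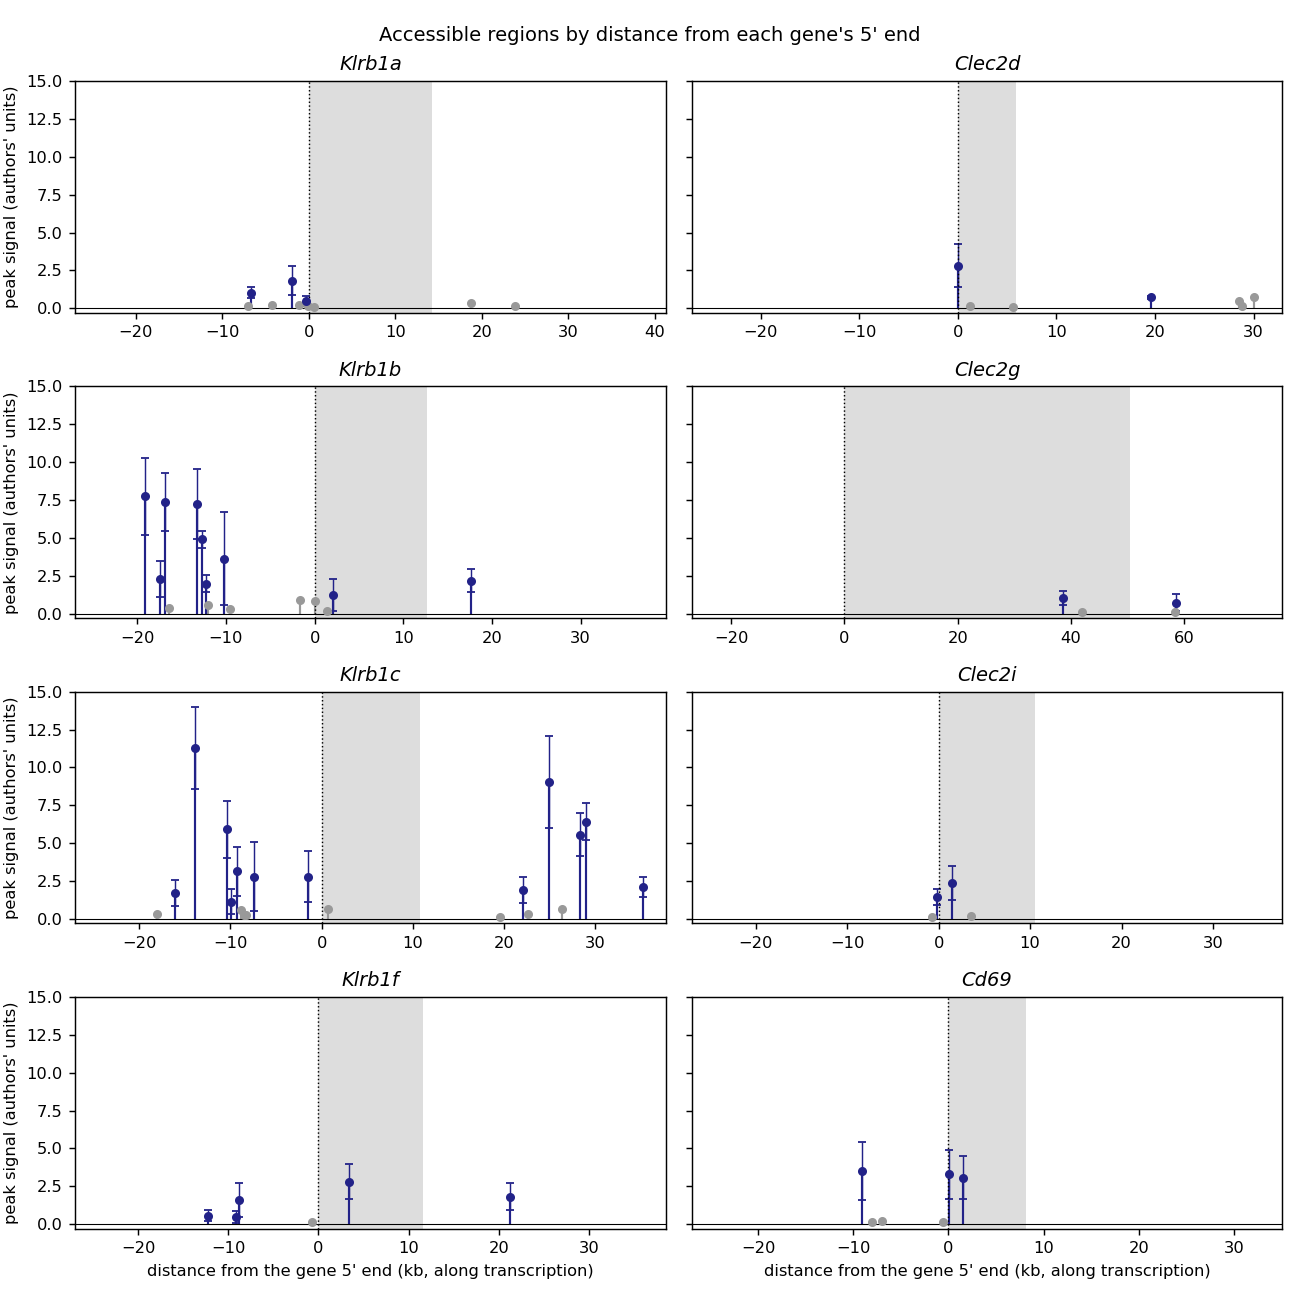
Peak signal in the authors' units (y axis, mean of 4 libraries) of every accessible region, by the distance of its centre from the gene's 5' end in kb along the direction of transcription (x axis). Blue points are recurrent regions with SD bars, grey points are regions in fewer than 3 libraries, and grey shading is the gene body. The tallest regions, up to a mean of 11.3, flank Klrb1c and Klrb1b outside the gene bodies, while the tallest of Clec2d and Clec2i lie at or near the 5' end and that of Cd69 at -9.13 kb (3.54).

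Summed over its assigned regions, the signal of Klrb1c was 43.7, 47.2, 91.6 and 45.5 in replicates 1 to 4, a mean of 57 ± 23.1 (SD). Klrb1b gave 36.3, 40.4, 63.6 and 26.4, a mean of 41.7 ± 15.8. With 25 kb flanks these sums did not overlap those of any other gene of the group, of which Cd69 was highest with 7.23, 8.47, 18.7 and 7.26 (mean 10.4 ± 5.55). With 10 kb flanks the means were 11.7 for Klrb1c, 7.64 for Klrb1b and 10.4 for Cd69, and with gene bodies alone 0.667, 2.20 and 6.35 for the same genes. Klrb1f had a mean of 7.43 ± 3.83, Clec2d 5.13 ± 4.11, Klrb1a 4.59 ± 2.87, Clec2i 4.11 ± 2.15 and Clec2g 1.94 ± 1.35. Clec2g was the lowest gene of the 8 in every library. Klrb1f was above Clec2d, Klrb1a and Clec2i within every library, though by only 5.46 against 5.44 over Klrb1a in replicate 2. The order of Clec2d, Klrb1a and Clec2i changed between libraries. Without replicate 3 the mean of Clec2d was 3.07, below the 3.41 of Klrb1a.

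The mean sum of the 4 Klrb1 genes exceeded that of the 3 Clec2 genes in every library, with log2 ratios of 3.02, 3.22, 2.56 and 3.27. Klrb1b and Klrb1c carried most of this difference. Within each library Klrb1f, with 6.59, 5.46, 13.0 and 4.63, was also above every Clec2 gene. Klrb1a was above Clec2d and Clec2i in some libraries and below them in others. The mean log2 ratio was 3.02 ± 0.32 (SD, n = 4), with p = 0.13 in an exact two-sided sign-flip permutation test, the smallest value that 4 libraries allow, so the design cannot reach 0.05. This difference was one of flanking DNA. With the flanks shortened to 10 kb, the mean log2 ratio was 1.30 ± 0.16, and with gene bodies alone it turned to -1.03 ± 0.49, higher at the Clec2 genes in all 4 libraries (exact p = 0.13). Within their gene bodies, Klrb1c and Klrb1a held no recurrent region, and Klrb1b and Klrb1f held 1 each.

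Klrb1c encodes NKR-P1C, the activating receptor that carries the NK1.1 antigen. Its strongest region, and the strongest of all 8 loci, was upstream, with its centre at -13.9 kb from the 5' end (minus for upstream), chr6:128803021-128803280. Replicates 1 to 4 gave signals of 9.19, 10.6, 15.2 and 10.1, a mean of 11.3 ± 2.70, and the mean was above that of 99.2% of the genome's recurrent regions away from gene 5' ends. All 4 libraries were high, with replicate 3 at the top in the authors' units. After division by each library's median over regions found in all 4, replicate 4 was at the top. The next in height lay downstream of the gene, 24.9 kb past the 5' end, at chr6:128764141-128764400, with 8.03, 6.73, 13.5 and 7.97 (mean 9.05 ± 3.02). No transcript start of another annotated gene lies within 1 kb of either region, although the upstream one is inside Gm44511, an overlapping gene model.

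Those 2 regions are copies of one another, which is why both are shown. Their sequences are from the RefSeq mm10 genome, plus strand, whereas Klrb1c is on the minus strand, and capitals mark stretches of at least 6 bases covered by footprints of at least 3 libraries. A footprint is a short stretch that the authors called as protected from cutting within open DNA.
Klrb1c -13.9 kb: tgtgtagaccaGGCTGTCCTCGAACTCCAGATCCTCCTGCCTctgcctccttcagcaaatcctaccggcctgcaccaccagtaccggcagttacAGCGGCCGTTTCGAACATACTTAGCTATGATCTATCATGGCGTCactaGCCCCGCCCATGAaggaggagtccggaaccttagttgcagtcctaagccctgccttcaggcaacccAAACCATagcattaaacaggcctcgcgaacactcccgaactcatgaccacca
Klrb1c +24.9 kb: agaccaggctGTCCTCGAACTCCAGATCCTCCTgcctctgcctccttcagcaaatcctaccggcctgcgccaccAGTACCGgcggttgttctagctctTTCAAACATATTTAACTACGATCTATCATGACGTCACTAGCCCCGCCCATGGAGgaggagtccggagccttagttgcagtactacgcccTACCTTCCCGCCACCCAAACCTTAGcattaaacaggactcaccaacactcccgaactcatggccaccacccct
The alignment covered 260 bases at 89.2% identity, with 28 substitutions and no gap, 11 of them under the capitals of the downstream copy. Both copies carry capitals over the corresponding central stretch, 95 capital bases upstream and 109 downstream. The downstream copy had the lower signal in all 4 libraries, by a mean of 2.21 ± 1.16 (exact sign-flip p = 0.13).

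This pair belongs to a larger duplication. The 4 downstream regions of Klrb1c at +22.1, +24.9, +28.3 and +29.0 kb each match a sequence upstream of the gene, in the same order and orientation, 38.3 to 38.9 kb away. Copies were sought on chromosome 6 and counted where at least 80% of a region aligned at 80% identity or more. By this measure 16 of the 38 recurrent regions had 1 to 5 copies, 10 of them at Klrb1c, and none at Klrb1f, Clec2d or Cd69. A further 2 regions, at Klrb1a -0.355 kb and Klrb1f -9.10 kb, had 16 and 6 matches and were 91.2% and 70.4% repeat-masked, and 20 had no copy.

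At 7 pairs, both copies were accessible regions of these loci, and 5 of the 7 had the same order of signal in all 4 libraries. The widest gap was at the Klrb1c +29.0 kb region, chr6:128760101-128760320, with 5.52, 7.21, 7.72 and 5.28, against 0, 1.60, 1.81 and 1.13 in the region at -9.93 kb that holds its copy. The mean difference, +29.0 minus -9.93 kb, was 5.30 ± 0.788 (n = 4; exact sign-flip p = 0.13, 0.175 adjusted over the 7 pairs). The values of the 2 regions do not overlap. In replicate 1, where the copy had no peak, 168 of its 221 aligned bases still had a false discovery rate (FDR) under 0.001, the authors' per-base measure of excess cutting.

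The 2 sequences are shown to set their capitals side by side. Windows of 36 bases that occur once on chromosome 6 make up 61.1% of the +29.0 kb region and 61.3% of its copy.
Klrb1c +29.0 kb: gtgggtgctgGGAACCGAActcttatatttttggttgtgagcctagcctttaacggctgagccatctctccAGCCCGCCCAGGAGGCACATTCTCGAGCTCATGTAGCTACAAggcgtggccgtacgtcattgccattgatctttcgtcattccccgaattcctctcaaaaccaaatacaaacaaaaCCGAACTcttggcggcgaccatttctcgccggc
Klrb1c -9.93 kb copy: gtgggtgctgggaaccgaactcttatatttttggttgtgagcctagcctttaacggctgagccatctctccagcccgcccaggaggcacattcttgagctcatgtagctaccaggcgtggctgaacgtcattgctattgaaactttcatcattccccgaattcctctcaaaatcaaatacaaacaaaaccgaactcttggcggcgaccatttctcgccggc
They aligned at 95.9% identity with 8 substitutions, of which C95T and A112C, counted from base 1 of the +29.0 kb sequence and giving its base first, fall under capitals. The +29.0 kb sequence has 58 capital bases, and the copy at chr6:128798885-128799105 has 0; its signal was lower in every library, with no peak in replicate 1.

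In the other pairs the gap was smaller or went both ways. The Klrb1c copies at +28.3 and -10.4 kb had means of 5.57 ± 1.40 and 5.92 ± 1.89, with the +28.3 kb copy higher in 1 of 4 libraries (mean difference -0.350 ± 1.01; exact p = 0.375). Those at +22.1 and -16.1 kb had 1.93 ± 0.848 and 1.70 ± 0.859, the +22.1 kb copy being higher in 3 of 4 (difference 0.230 ± 0.315; exact p = 0.25). Neither of these 2 pairs was separated beyond the spread between libraries. Klrb1a, an activating receptor gene, shares 2 regions with Klrb1c. The Klrb1a -1.91 kb region had a mean of 1.83 ± 0.936, against 2.79 ± 1.67 at its Klrb1c -1.47 kb copy (97.9% identity), and it was lower in all 4 libraries. The Klrb1a -6.68 kb region had 1.03 ± 0.363, against 2.10 ± 0.684 at the Klrb1c +35.2 kb copy (96.8% identity), and was again lower in all 4.

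**Figure D2:**
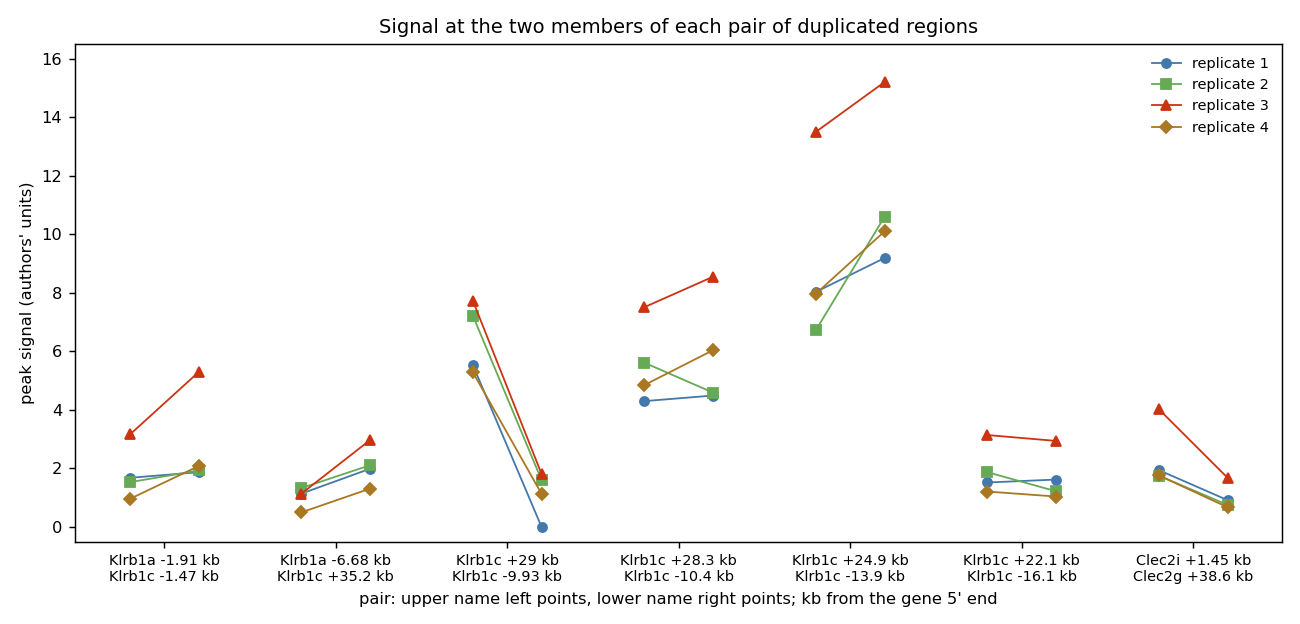
Peak signal in the authors' units (y axis) at both regions of each of the 7 pairs of copies (x axis), named by gene and distance of the centre from the gene's 5' end in kb; lines join the values of 1 library. The steepest lines belong to the Klrb1c +29.0 kb region (mean 6.43) and its copy at -9.93 kb (mean 1.14), and the lines of the +28.3 and -10.4 kb pair go both ways.

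No source used here says how the authors placed reads that match several copies, and its part in these differences was not tested. Shares of 36-base windows unique on chromosome 6 were 29.3% in the Klrb1a -1.91 kb region and 42.4% in its Klrb1c copy, 64.3% and 65.5% in the Klrb1a -6.68 kb region and its copy, and 81.8% and 83.1% in the +24.9 and -13.9 kb pair.

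Klrb1b encodes the inhibitory receptor NKR-P1B, which recognises the Clec2d product. Its strongest regions stood in a row upstream of the gene, at -19.1, -16.9, -13.3 and -12.7 kb, with means of 7.75 ± 2.55, 7.37 ± 1.90, 7.22 ± 2.32 and 4.92 ± 0.564. The outermost gave 7.46, 8.12, 10.8 and 4.59 in replicates 1 to 4. Neighbours in this order differ by less than their SDs, except that the last of the 4 was lower than the third in every library (5.67 against 10.5 in replicate 3, for example). The -16.9 kb region lies within 1 kb of transcript starts of the gene models Gm26656 and Gm44066, and the -19.1 kb region is inside Gm26656 and Gm44067. All 4 lie outside the gene body and were assigned to Klrb1b by distance alone. The -19.1 kb region is shown as the top of this array, at chr6:128845361-128845580, plus strand, with capitals as above.
Klrb1b -19.1 kb: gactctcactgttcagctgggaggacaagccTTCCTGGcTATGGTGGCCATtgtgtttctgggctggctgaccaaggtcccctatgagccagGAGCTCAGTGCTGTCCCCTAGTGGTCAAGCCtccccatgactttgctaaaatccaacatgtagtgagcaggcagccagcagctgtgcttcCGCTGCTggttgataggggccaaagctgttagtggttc
All 36-base windows of this region were unique on chromosome 6 (100%), and it had no copy there. Footprints lying wholly inside it numbered 5, 5, 4 and 6 in replicates 1 to 4.

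Stretches of repeat sequence recur among the strong regions of both genes. An 81-base stretch of the Klrb1c +24.9 kb region, 77.8% of it lower case (repeat-masked) in the genome file, was matched at 90% identity or more over at least 90% of its length at 25 places on chromosome 6. In the span of the 8 loci 6 of these lay, 1 of them the stretch itself, and all 6 overlapped a recurrent region by at least 1 base. The others were at Klrb1c -13.9 and -10.4 kb, at the edge of the +28.3 kb region with only part of the match inside, and, in reverse orientation, at Klrb1b -16.9 and -12.2 kb. Of the other 19 matches on the chromosome, 4 overlapped a recurrent region. A 77-base stretch of the Klrb1c +29.0 kb region, wholly repeat-masked, had 3 matches on the chromosome, all at 100% identity and all in recurrent regions, namely its own, its copy's and, in reverse, that of Klrb1b -12.7 kb. These stretches were chosen after the regions were known, so the counts are a description.

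Neither Klrb1b nor Klrb1c had a recurrent region at a transcript start. A region with any part within 1 kb of a start was counted as lying at it, and all annotated starts of each gene were checked. At the 3 starts of Klrb1c, the peak signal was 0, 0, 2.67 and 0 in replicates 1 to 4, and only replicate 3 had bases with an FDR under 0.001. At the 4 starts of Klrb1b it was 0, 1.14, 2.10 and 0, from a region at the gene's very 5' end that also touches the start of Gm44511. The nearest recurrent regions began 1346 bases from the 5' end of Klrb1c and 1971 bases from that of Klrb1b. At the start, Klrb1c thus had a peak in 1 library and Klrb1b in 2, short of the 3 that count as recurrent.

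Klrb1a had a recurrent but weak region at its 5' end, with 0.517, 0.503, 0.797 and 0. No base within 1 kb of its starts had an FDR under 0.001 in any library, 91.2% of the region is repeat-masked, and it matched 16 other places on chromosome 6. Under the authors' shorter peak lists this region was lost. The strongest region of Klrb1a was the one at -1.91 kb that is copied at Klrb1c, with 1.68, 1.53, 3.16 and 0.961.

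Klrb1f encodes an activating receptor, NKR-P1F, which binds the Clec2i product. It has 5 annotated starts, of which 4 lie together at the 5' end and had a peak in replicate 3 only (0.556). At the remaining start, that of a non-coding transcript inside the gene, lay the strongest region of the locus, chr6:129049141-129049380, with 2.28, 2.21, 4.57 and 2.22 (mean 2.82 ± 1.17). All 4 libraries had it, at about the level of the Clec2d and Cd69 starts. An antisense gene model, Gm44000, starts within 1 kb of it, and DNase-seq does not tell the strands apart. The sequence, plus strand, is shown because it is the only accessible start of this gene.
Klrb1f +3.36 kb: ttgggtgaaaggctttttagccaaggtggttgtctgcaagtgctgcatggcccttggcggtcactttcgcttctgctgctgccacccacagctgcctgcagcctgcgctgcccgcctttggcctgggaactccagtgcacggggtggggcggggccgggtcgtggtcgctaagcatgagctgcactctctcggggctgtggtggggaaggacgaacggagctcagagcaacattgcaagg
It has 62.9% G and C, the highest share among the recurrent regions of the 8 loci, whose median was 49.6%, and no stretch with footprints in 3 libraries.

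In all, 4 of the 8 genes had a recurrent region at the 5' end (Klrb1a, Clec2d, Clec2i and Cd69), against the 50.3% of all protein-coding genes given above. With every annotated start counted, Klrb1f was added, making 5 of 8, where 54.7% of protein-coding genes had one. Both shares are near the background, so no more was read from the counts. Demanding a peak in all 4 libraries removed Klrb1a from both, and allowing a peak in any 1 library left Clec2g as the only gene with a closed start.

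**Figure D3:**
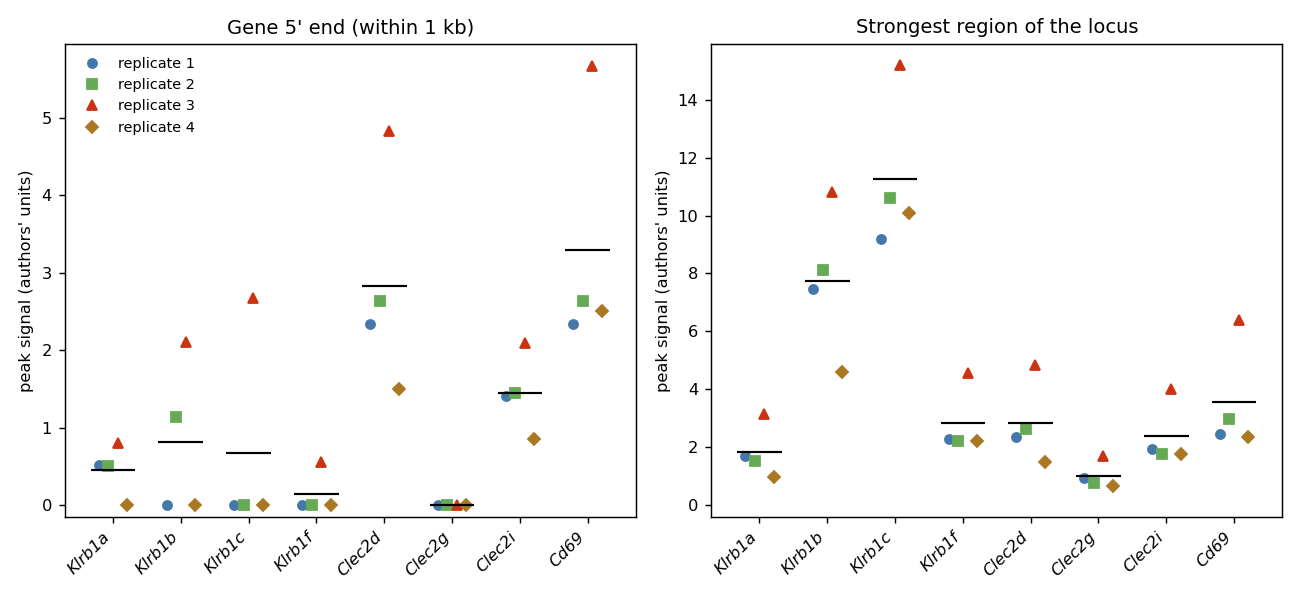
Peak signal in the authors' units (y axis) in each library, within 1 kb of the gene 5' end (left) and in the strongest region of each locus (right); each point is 1 library and the bar is the mean of 4. At the 5' ends Cd69 (mean 3.29), Clec2d (2.82) and Clec2i (1.45) had a peak in all 4 libraries and Clec2g in none, whereas the strongest regions were highest at Klrb1c (11.3) and Klrb1b (7.75).

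At Clec2d and Clec2i the strongest region lay at or just inside the gene. Clec2d encodes Clr-b, the ligand of the inhibitory receptor NKR-P1B, which is carried by many healthy cells. Its strongest region spanned the 5' end, chr6:129180421-129180840, with 2.34, 2.63, 4.83 and 1.5 (mean 2.82 ± 1.42). Clec2i encodes Clr-g, a ligand of NKR-P1F, and its region at the 5' end gave 1.41, 1.44, 2.09 and 0.855 (mean 1.45 ± 0.506), while an intronic one at +1.45 kb gave 1.94, 1.75, 4.02 and 1.76 (mean 2.37 ± 1.11). The intronic region was higher than the 5' end in every library.

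Clec2g, another gene of the family, differed from both. It has 5 annotated starts, and no library had a peak, or any base listed with an FDR under 0.05, within 1 kb of any of them. Windows of 36 bases unique on chromosome 6 made up 71.0% of the 1 kb on either side of its 5' end, against 79.2% for Clec2d and 86.2% for Clec2i. Its recurrent regions were an intronic one at +38.6 kb, with 0.917, 0.755, 1.68 and 0.673, and one 58.6 kb from the 5' end, at the start of the gene BC064078. The intronic region is a copy of the Clec2i intronic one at 97.0% identity. There the Clec2i copy was higher in all 4 libraries (mean difference, Clec2i minus Clec2g, 1.36 ± 0.655; exact sign-flip p = 0.13), and 77.8% and 55% of their 36-base windows were unique.

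The promoters of Clec2d and Clec2g are set side by side because one was open and the other closed in every library. RefSeq promoter sequences (GRCm38.p6, 250 bases before to 50 after a start) were found for 7 of the 8 genes, all but Cd69. Both lines read along the gene, which is on the plus strand, at chr6:129180365-129180664 and chr6:128934131-128934430, and capitals again mark footprints shared by at least 3 libraries.
Clec2d: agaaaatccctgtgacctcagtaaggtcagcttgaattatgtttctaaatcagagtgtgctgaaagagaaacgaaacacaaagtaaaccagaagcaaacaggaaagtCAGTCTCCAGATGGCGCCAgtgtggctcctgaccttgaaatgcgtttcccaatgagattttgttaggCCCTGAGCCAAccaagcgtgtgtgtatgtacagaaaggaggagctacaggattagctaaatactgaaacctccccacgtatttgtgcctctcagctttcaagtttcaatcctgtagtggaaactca
Clec2g: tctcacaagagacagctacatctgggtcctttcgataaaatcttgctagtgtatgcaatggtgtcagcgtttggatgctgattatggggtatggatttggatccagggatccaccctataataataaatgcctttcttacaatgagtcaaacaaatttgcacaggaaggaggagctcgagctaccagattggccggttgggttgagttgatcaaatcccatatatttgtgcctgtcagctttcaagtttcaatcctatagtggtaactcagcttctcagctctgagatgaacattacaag
At best alignment 182 of the 300 bases (60.7%) were identical, within the 51.3% to 65.3% of all pairs of the 7 promoters other than Klrb1a with Klrb1c (78.7%). Fixed windows were aligned end to end here, which can miss related sequence that is offset between them or lies partly outside. At least 296 of the 300 bases of the Clec2d promoter had an FDR under 0.001 in each library, and 0 of those of Clec2g did. The larger capital stretch of Clec2d holds AGATGGCGC, a match to the CTCF-like pattern AGNNGGCGC, which was chosen after the footprints were seen. This pattern was held, on either strand, by 7.23% of all 32851 promoters listed, and of the 7 genes it was found in the Clec2d promoter only.

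The sequence around the Clec2g 5' end also resembles the accessible region at the BC064078 start, with 88.6% identity over 315 aligned positions. That region gave 0.952, 0.634, 1.30 and 0, and the Clec2g copy had no peak in any library. Unique 36-base windows were 86.8% of the one and 84.1% of the other. The BC064078 region also matched the open region at the Clec2d 5' end, with 87.9% identity over 247 aligned positions. Both 5' ends, the open and the closed one, thus resemble the same region.

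Cd69 encodes an early activation antigen of lymphocytes that binds the receptor S1PR1 and holds cells in tissue. It had 3 recurrent regions of similar height, each found in all 4 libraries, and all 800 of their bases had an FDR under 0.001 in every library. The region at the 5' end, chr6:129275301-129275540, gave 2.34, 2.63, 5.67 and 2.51 (mean 3.29 ± 1.60). One inside the gene at +1.55 kb gave 2.43, 2.87, 5.11 and 1.85 (mean 3.07 ± 1.42), and one at -9.13 kb gave 2.46, 2.97, 6.40 and 2.34 (mean 3.54 ± 1.92). Their order changed between libraries, and the means differ by far less than the SDs. The 5' region is printed, plus strand, as the 5' end with the highest mean, though that of Clec2d (2.82 ± 1.42) lies within its SD and had the same values in replicates 1 and 2.
Cd69 5' end: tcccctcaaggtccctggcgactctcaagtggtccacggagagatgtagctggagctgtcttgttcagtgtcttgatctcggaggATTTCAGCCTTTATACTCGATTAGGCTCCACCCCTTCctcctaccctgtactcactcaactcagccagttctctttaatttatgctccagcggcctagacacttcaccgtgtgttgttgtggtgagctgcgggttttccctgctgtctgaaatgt
The gene is on the minus strand, and the 37 capital bases form 1 stretch that starts 86 bases into the line and overlaps a match to none of the 12 patterns searched. An NF-kB word, GGGTTTTCC, lies outside it at bases 216 to 224.

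Footprints shared by at least 3 libraries, as stretches of at least 6 bases, were found wholly inside 25 of the 38 recurrent regions, and inside 58.6% of the genome's recurrent regions. There were 62 such stretches, 28 at Klrb1c, 16 at Klrb1b, 8 at Klrb1f, 3 each at Clec2i and Cd69, 2 each at Klrb1a and Clec2d, and 0 at Clec2g. Footprints of a single library numbered 109, 130, 167 and 111 in the recurrent regions of replicates 1 to 4.

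Fixed consensus patterns were searched on both strands in the central 150 bases of each region, as short exact words that miss weaker sites. RUNX (TGTGGTT) was found in 10.5% of the 38 recurrent regions and in 8.10% of the 23620 away from 5' ends in the genome. T-box (AGGTGTG) was found in 5.26% and 4.25%, NFAT (TGGAAAN) in 10.5% and 10.5%, STAT (TTCNNNGAA) in 7.89% and 3.78%, and KLF (GGGNGTGG) in 5.26% and 7.56%. ETS (AGGAAGT) was found in 2.63% and 10.8%, ZEB (CAGGTG) in 2.63% and 15.5%, AP-1 (TGANTCA) in 2.63% and 6.69%, and NF-kB (GGGNNTTCC) in 2.63% and 3.31%. The core CTCF word AGGGGGC was found in 0% and 11.3%, NFIL3 (TTANGTAA) in 0% and 0.737%, and AGNNGGCGC, added after the footprints were seen, in 5.26% and 11.5%. Each step of 2.63% is 1 region, and copies repeat the same match: the T-box matches were those of the Klrb1a -1.91 kb region and its Klrb1c copy.

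Over their whole length, 5 regions held AGNNGGCGC, and in all 5 it overlapped a shared footprint. Because the pattern was chosen after these footprints were seen, the overlap is a description and cannot serve as a test. They were the Clec2d 5' end and 2 pairs of copies, Klrb1a -6.68 with Klrb1c +35.2 kb and Klrb1c +28.3 with Klrb1c -10.4 kb. In the last pair the core word AGGGGGC overlaps the same bases. The Klrb1a -6.68 kb region, chr6:128630101-128630320, is given as an example, with the match (on the minus strand, GCGCCCTCT) at its bases 102 to 110.
Klrb1a -6.68 kb: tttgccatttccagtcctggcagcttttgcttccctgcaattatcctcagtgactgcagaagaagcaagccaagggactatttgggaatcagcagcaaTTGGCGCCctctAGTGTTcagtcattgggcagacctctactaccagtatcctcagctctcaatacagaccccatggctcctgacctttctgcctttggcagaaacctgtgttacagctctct

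Replicate 3 stood apart at many of these regions. After each library was divided by its median over regions found in all 4, replicate 3 was the highest library at 15 of the 32 regions of these loci found in all 4, and at 19.1% of such regions in the genome. The median ratio of replicate 3 to the mean of the other 3 was 1.21 in the 8 loci, with a range of 0.712 to 2.32, and 0.882 over the genome. The highest ratios were 2.32 at Klrb1b -10.2 kb, with 2.47, 2.69, 8.11 and 1.26 before scaling, 2.19 at Klrb1c -7.37 kb and 1.85 at Klrb1f -8.79 kb. At Cd69 all 3 regions were above 1.21. The strongest regions of Klrb1c and Klrb1b, in contrast, had ratios of 0.898 and 0.975, near the genome's median. Beside this, the scaled sum of NK markers was 21.1 in replicate 3 and 12.4 to 15.3 in the others, and that of B cell markers was 0.771 in replicate 3 and 2.77 to 6.02 in the others. The part of cell makeup in these ratios was not tested.

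**Figure D4:**
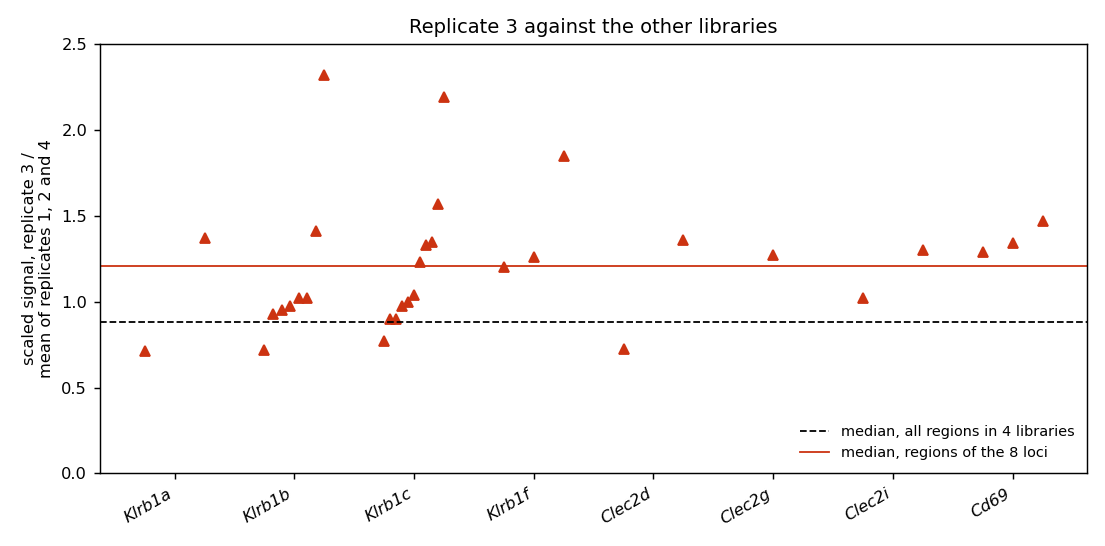
Ratio of the scaled peak signal in replicate 3 to the mean of replicates 1, 2 and 4 (y axis, no unit) for each region found in all 4 libraries, by gene (x axis); each point is 1 region. The red line is the median of the 8 loci (1.21) and the dashed line that of all such regions in the genome (0.882); Klrb1b and Klrb1c have both the highest points (2.32 and 2.19) and regions below the dashed line.

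Other genes of the pathway were read at their 5' ends. Of 9, 4 had a recurrent region there, and with every start counted Ptpn6, which encodes SHP-1, made it 5. The shares over all protein-coding genes were 50.3% at the 5' end and 54.7% at any start, so no more was read from these counts. Syk, the kinase downstream of Fcer1g, had 4.37 ± 2.62, Fcer1g 3.28 ± 1.33, Lck, a Src-family kinase of lymphocytes, 1.92 ± 0.663, and S1pr1, the partner of the Cd69 product, 1.44 ± 0.314 (SD, n = 4). S1pr1 was the exception in its order, with 1.22, 1.68, 1.11 and 1.73 and its lowest value in replicate 3. The remaining Clec2 genes had no recurrent region at the 5' end: Clec2e, Clec2f (annotated as a pseudogene) and Clec2l were at 0 in every library, and Clec2h had 0.407 in replicate 3 only.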

How the data were processed

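DNase-seq of 4 NK cell libraries was analysed. Per the deposited readmes, the authors made every file for each library separately from its filtered reads on mm10; no source used here names the aligner, callers or settings. The deposited peak lists give 1 signal value per peak, in an unstated unit. The deposited footprint lists hold a constant of 0.01, read as the authors' p-value limit, and the deposited FDR lists give a rate (an adjusted p-value) per base, listed under 0.05. Of each library's 2 peak lists the longer was used (36285 to 69168 peaks).

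Genes came from GENCODE vM21 (GRCm38.p6, the assembly of mm10). A region overlapping a gene body went to that gene, others to the nearest transcript start. A region's signal is its strongest peak, or 0. Differences were tested with an exact sign-flip permutation test over libraries, and single libraries that stood apart were sought with Dixon's criterion; the functions were tested on simulated data. Copies were found with BLAST 2.17.0 (dc-megablast), alignments made with Biopython 1.88 and sequences read with pysam 0.24.0. The rule named the 8 genes, the pathway genes, recurrent regions at starts and each strongest region; other regions were chosen after their values were seen. Members and lists were chosen with earlier results of these data known.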

Additional observations from a re-analysis of the deposited data

Results flagged for a closer look

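Values of the 4 libraries were checked for a highest or lowest library far from the rest (gap to the nearest other library, as a share of the range, above Dixon's 95% critical value); chance marks about 1 in 20 such sets. Of 60 sets, 13 were marked, 12 of them for a high replicate 3. They were the summed signal of Klrb1c (91.6 in replicate 3), Clec2d (11.3), Clec2i (7.30) and Cd69 (18.7), and the signal of single regions at Klrb1c -1.47 kb (5.29) and -7.37 kb (6.20), Clec2i +1.45 kb (4.02), Klrb1f -8.79 kb (3.26) and +3.36 kb (4.57), and Cd69 at the 5' end (5.67) and -9.13 kb (6.40). Footprints in the recurrent regions of Cd69 numbered 13 in replicate 3. The last set was low in replicate 4, with 2 footprints at Klrb1a against 5 in each of the other libraries.

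Replicate 3 has the highest signal scale of the 4 libraries. After division by each library's median, 2 of the 40 signal sets were marked, where 11 had been before. The one not marked before was the strongest region of Klrb1c, where replicate 4 stood above the other libraries after scaling. Before scaling this region gave 9.19, 10.6, 15.2 and 10.1 in replicates 1 to 4. Clec2d stayed marked, with scaled sums of 1.78, 1.69, 3.97 and 1.99 in replicates 1 to 4. Of its 7 regions, 5 had peaks in replicate 3 that replicates 1 and 2 lacked, and 1 of these 5 was also found in replicate 4.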

How the results depend on the processing

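No paired analysis was possible because there is a single group. Each of 32 results was recomputed under the alternatives, 229 values in all. Of these, 190 were counted as unchanged, 38 as moved and 1 as reversed. Apart from the log2 ratio below, unchanged values kept their direction and stayed within 1.5 times or 1 SD. The reversal was the log2 ratio of Klrb1 over Clec2 genes, -1.03 with gene bodies alone. Under every other alternative this ratio lay between 1.30 and 3.17, against 3.02 ± 0.32 in the main analysis. Its value of 1.30, with 10 kb flanks, was counted as unchanged although it lay beyond both limits. Recurrent regions fell to 22 with 10 kb flanks and 8 with gene bodies alone, and regions of any library to 17 with gene bodies alone; both follow from the shorter loci. Genes with a region at the 5' end numbered 7 when a peak in any 1 library sufficed. Leaving out a library, with recurrence then taken as 2 of the 3 left and so less strict, gave 40 to 44 recurrent regions and 4 or 5 genes open at the 5' end, Klrb1b being the one added. With no minimum length of shared footprints, added after the data were seen, 26 regions held one, against 25. The single-gene values, counted together with that of regions holding a shared footprint, moved in 34 of 177 cases. Most often this was with gene bodies alone or with scaling, which changes the unit. The unknown read depth and unit limit any comparison between libraries, and copies limit what can be assigned to Klrb1a and Klrb1c.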
